A study of Mus musculus with 8 samples.

Results

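Tuft cells are rare chemosensory cells of the intestinal epithelium, and 10 genes widely used to recognise them were examined here: Dclk1, Trpm5, Pou2f3, Il25, Alox5, Ptgs1, Hpgds, Gfi1b, Avil and Rgs13. They were chosen by name, by matching their symbols to the Ensembl mouse gene identifiers of the count table, and all 10 were found among the 54532 genes listed. The data came from mouse small intestinal organoids, which are epithelial structures grown from crypts without stroma or immune cells, in medium with EGF, NOGGIN and R-spondin. RNA was measured by 3′ mRNA sequencing in 4 control libraries and 4 libraries from organoids treated with RANKL, the ligand of the receptor RANK. The labels give no strain, genotype, age or passage, and the dose and time of RANKL for these libraries are not given in the sources used here. Nothing in the labels says that the 4 libraries of a group came from separate animals or cultures, so the p-values measure the spread between these libraries, which may be technical.

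As background, tuft cells carry an apical tuft of microvilli and sense luminal microbes and metabolites with parts of the taste transduction cascade, in which G proteins and a phospholipase raise intracellular calcium and open the cation channel Trpm5. The POU factor Pou2f3 is needed for the lineage. In infection by helminths or protists, tuft cells release the cytokine Il25 and lipid mediators made by enzymes such as Alox5, Ptgs1 and Hpgds, which act on group 2 innate lymphoid cells, and the type 2 cytokines that follow increase the number of tuft cells. Several of the 10 genes are also used by blood cells, among them Gfi1b in the erythroid and megakaryocyte lineages and Alox5, Ptgs1, Hpgds and Rgs13 in myeloid or mast cells.

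The libraries were shallow for genes of such rare cells. Total counts ran from 583663 to 7807298 per control library and from 613135 to 1923354 per RANKL library. Levels are given as CPM, in which counts are divided by the library's TMM-adjusted total and brought to the same base in all libraries, and a single count stood for 0.127 CPM in control replicate 1 and for 1.72 CPM in control replicate 4. Each transcript was read near its 3′ end, so that a count does not scale with transcript length and levels can be set side by side between genes. Epithelial identity was clear, since Epcam, Cdh1, Krt8, Vil1, Cdx1 and Cdx2 together held between 4819 and 5713 CPM in every library. Tnfrsf11a, which encodes RANK, had a mean of 31.0 CPM over the controls (SD 6.41, n = 4) and of 156 CPM with RANKL (SD 11.2, n = 4), and its log2 fold change was 2.39 ± 0.14 (SE, edgeR adjusted p = 7.24e-15).

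All 10 tuft genes together had 312 counts in the 4 control libraries and 107 counts in the 4 RANKL libraries. Their summed level was 20.2, 22.3, 15.2 and 17.2 CPM in control replicates 1 to 4. It was 27.4, 17.9, 17.7 and 16.5 CPM in RANKL replicates 1 to 4. The groups overlapped, with RANKL replicate 1 the highest library and control replicate 3 the lowest. The mean was 18.7 ± 3.14 CPM in control and 19.9 ± 5.08 CPM in RANKL libraries (SD, n = 4 each), a log2 ratio of the means of 0.09. With Dclk1 left out, the sum was 11.7 ± 1.5 CPM in control and 10.1 ± 4.09 CPM in RANKL libraries, a log2 ratio of -0.21. In bulk RNA, fewer cells of a type and less RNA per cell cannot be told apart. The number of the 10 genes with at least 1 count was between 4 and 8 in the control libraries and between 4 and 7 in the RANKL libraries. Control replicate 4, the shallowest library, showed 4 of the genes.

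**Figure D1:**
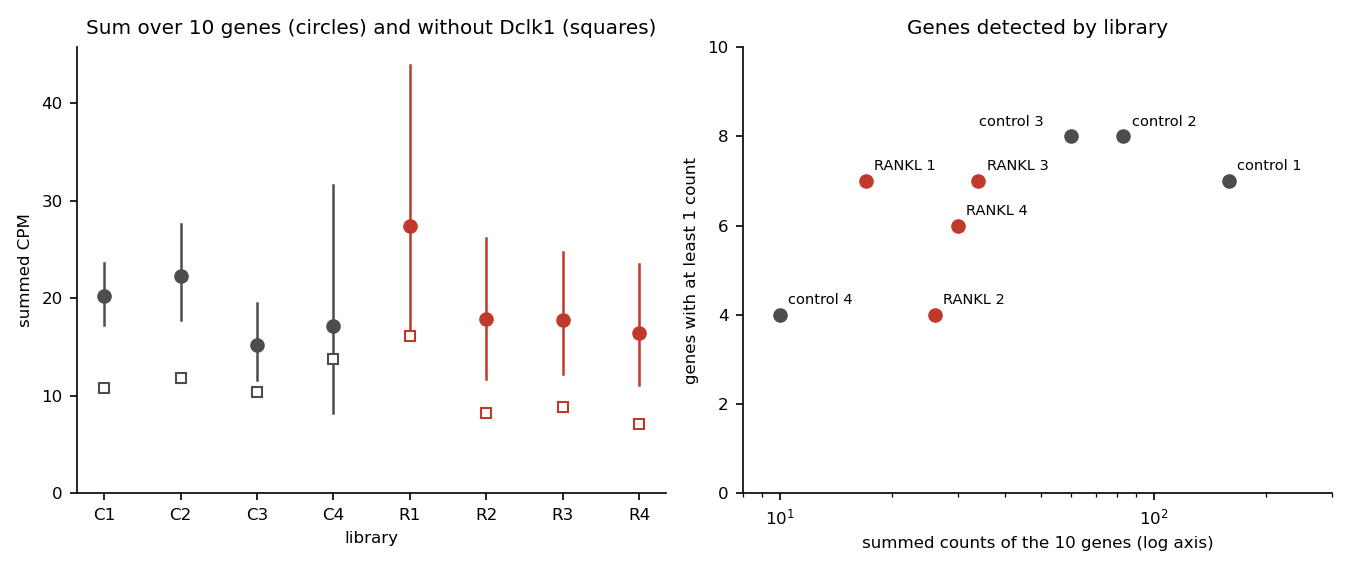
Left, summed CPM of the 10 tuft genes in each library (filled circles, with exact 95% Poisson intervals as lines) and of the 9 genes other than Dclk1 (open squares), for control libraries C1 to C4 in grey and RANKL libraries R1 to R4 in red. Right, number of the 10 genes with at least 1 count against their summed counts (log axis). The filled circles of both groups lie between 15.2 and 27.4 CPM and overlap.

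In the comparison of RANKL with control, edgeR's quasi-likelihood test called 0 of the 10 tuft genes, whereas 25.9% of the 9971 genes tested passed the adjusted p of 0.05 in either direction. Dclk1 was the sole tuft gene to pass edgeR's filter on low counts, so that this count rests on 1 tested gene. At an unadjusted p of 0.05 the filtered test also gave 0 tuft genes, beside 36.3% of all genes tested. Without the filter, 9 of the 10 had a value and 1, Gfi1b, passed the adjusted threshold, beside 10.8% of the 23836 genes with a value (5.99% higher with RANKL) and 3.22% of the 5380 filtered-out genes with 6 to 66 counts over the 8 libraries, which is the range of the tuft genes that the filter left out. Gfi1b was also the sole tuft gene with an unadjusted p under 0.05 in that fit. DESeq2 called 0, beside 14.1% of 13668 genes, with an unadjusted p under 0.05 for Gfi1b alone, and gave no adjusted p for 5 of the genes. No tuft gene had libraries that did not overlap between the groups. Groups without overlap were seen for 24.6% of the genes past the filter, to which Dclk1 alone of the tuft genes belongs. Pou2f3, Ptgs1, Alox5, Gfi1b and Il25 were at 0 in libraries of both groups, so their overlap was certain. Overlap at such low counts says little about a difference.

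**Figure D2:**
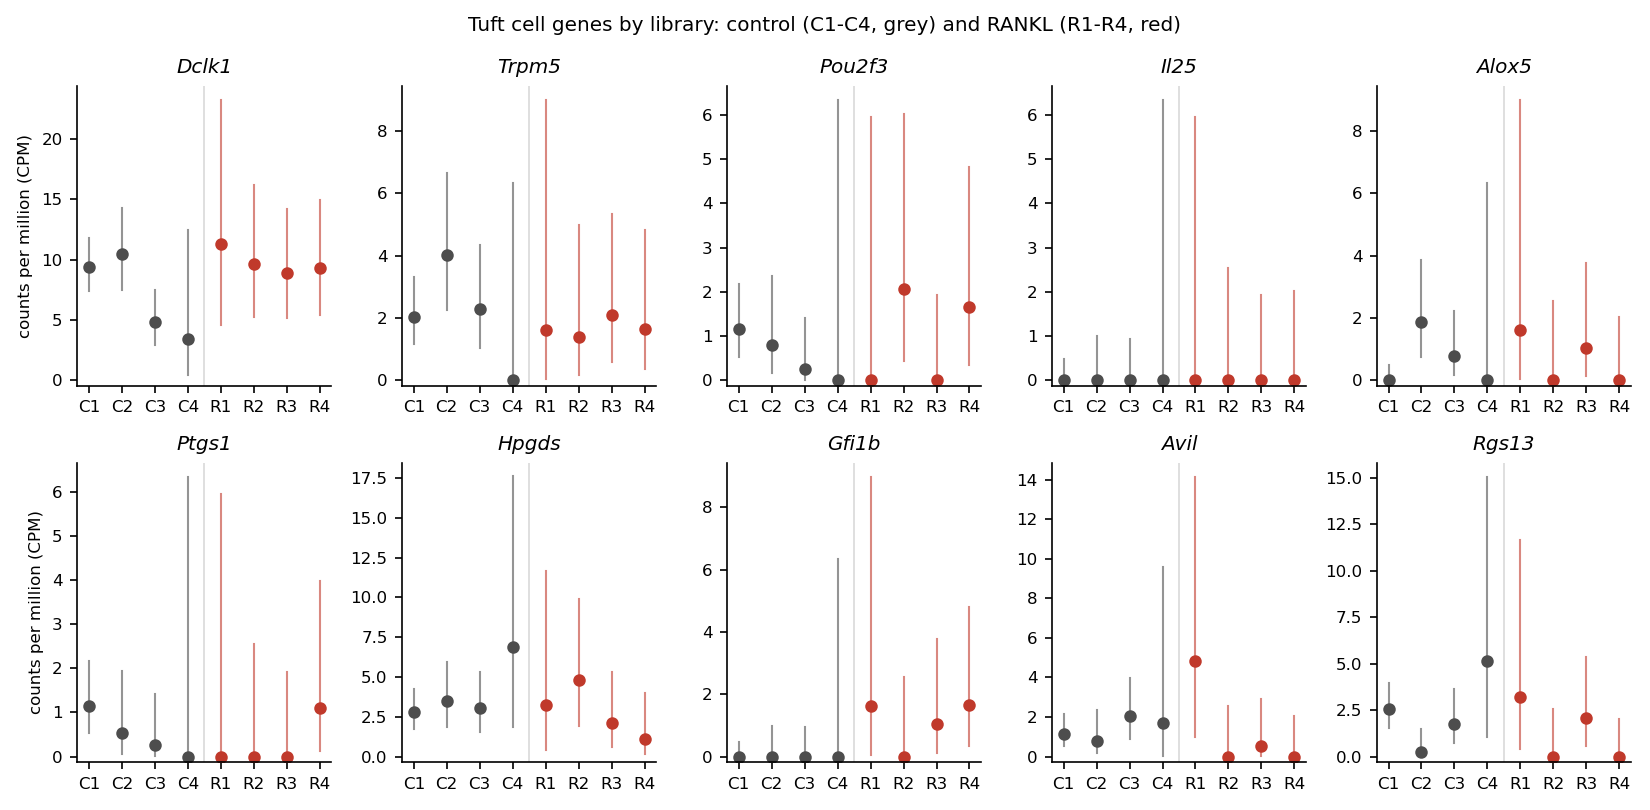
CPM of each of the 10 tuft genes in control libraries C1 to C4 (grey) and RANKL libraries R1 to R4 (red), with exact 95% Poisson intervals, which cover counting error only. Each panel has its own linear axis, and every gene has libraries of both groups at overlapping levels. Il25 is at 0 in all 8 libraries and Gfi1b in all 4 control libraries.

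Dclk1 and Avil are the cytoskeletal genes of the set. Dclk1, the doublecortin-like kinase that binds microtubules and the most used marker of tuft cells, lies on chromosome 3 at 55242364 to 55539068 (GRCm38, plus strand). It had 74, 39, 19 and 2 counts in control replicates 1 to 4, which are 9.42, 10.5, 4.81 and 3.44 CPM. In RANKL replicates 1 to 4 it had 7, 14, 17 and 17 counts, which are 11.3, 9.64, 8.87 and 9.34 CPM. The RANKL libraries lay close together, within the span of the control libraries except for RANKL replicate 1, and control replicates 3 and 4 were the lowest of the 8. The means were 7.04 ± 3.43 CPM in control and 9.78 ± 1.06 CPM in RANKL libraries (SD, n = 4 each). The log2 fold change was 0.25 with a 95% interval from -0.36 to 0.85 (edgeR adjusted p = 0.589), and the exact two-sided permutation test over 70 assignments of the libraries gave p = 0.257, where the smallest p it can give is 0.0286. Dclk1 provided 42.9% of the counts of the 10 genes in control and 51.4% in RANKL libraries.

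Avil encodes advillin, an actin-bundling protein of the villin family, on chromosome 10 at 127000709 to 127020994 (plus strand). It had 9, 3, 8 and 1 counts in control replicates 1 to 4 and 3, 0, 1 and 0 counts in RANKL replicates 1 to 4. RANKL replicate 1 was the highest library at 4.84 CPM and RANKL replicates 2 and 4 were at 0, so the control libraries, from 0.805 to 2.03 CPM, lay inside the RANKL range. The ratio of the pooled levels, RANKL over control, was 0.528 with an exact 95% interval from 0.132 to 1.57 that covers counting error only (exact permutation p = 0.971).

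Among the transcription factors, Pou2f3 lies on chromosome 9 at 43123939 to 43210369 (minus strand). It had 9, 3, 1 and 0 counts in the control libraries and 0, 3, 0 and 3 counts in the RANKL libraries. Each group thus held libraries with none, and the pooled levels were 0.807 CPM in control and 1.03 CPM in RANKL libraries. Their ratio was 1.28 with an interval from 0.399 to 3.61 (exact permutation p = 0.571), so that a fall to 0.399 of the control level or a rise to 3.61 times it was within counting error.

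Gfi1b, a zinc finger repressor best known from red cell and platelet precursors, lies on chromosome 2 at 28609450 to 28621982 (minus strand). It had 0 counts in all 4 control libraries and 1, 0, 2 and 3 counts in the RANKL libraries. The groups overlapped because RANKL replicate 2 was also at 0. Set against the 3 counts that 0 allows for the control libraries as a whole, or 0.186 CPM, the pooled RANKL level of 1.03 CPM was 5.54-fold higher. This value leaves out the error of the 6 RANKL reads. The exact interval of the ratio, which counts that error, began lower, at 3.26. The exact permutation test gave p = 0.143. The edgeR fit without a filter gave an adjusted p of 0.0118, while the filtered fit and the fit that asked for 10 counts over the 8 libraries did not test the gene. The haematopoietic marker Pf4, a platelet chemokine, likewise had 0 counts in control and 6 counts in RANKL libraries. Itga2b, the integrin of platelets and megakaryocytes, held most of the counts of that list in control, with 43 counts there and 17 in RANKL libraries, and its pooled ratio was 1.10 with an interval from 0.586 to 1.96. Of the 12 haematopoietic markers, 7 had any count, with sums between 2.03 and 6.88 CPM in control and between 3.44 and 14.5 CPM in RANKL libraries. The pan-leukocyte gene Ptprc had 1 count in all 8 libraries, and Cd3e of T cells, Cd79a of B cells and the mast cell and basophil genes Fcer1a, Cpa3 and Mcpt4 had 0.

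Trpm5 and Rgs13 are the signalling genes. Trpm5, the calcium-activated cation channel that depolarises the cell in taste transduction, lies on chromosome 7 at 143069153 to 143094642 (minus strand). It had 16, 15, 9 and 0 counts in the control libraries and 1, 2, 4 and 3 counts in the RANKL libraries. In CPM these were 2.04, 4.03, 2.28 and 0 in control and 1.61, 1.38, 2.09 and 1.65 in RANKL libraries. Both the highest and the lowest library were controls. The pooled ratio was 0.693 with an interval from 0.309 to 1.41 (exact permutation p = 0.629).

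Rgs13, which speeds the GTPase activity of G protein alpha subunits and so shortens their signal, lies on chromosome 1 at 144138654 to 144177372 (minus strand). It had 20, 1, 7 and 3 counts in the control libraries and 2, 0, 4 and 0 counts in the RANKL libraries. Its level varied as much within the groups as between them, from 0.268 to 5.16 CPM in control and from 0 to 3.23 CPM in RANKL libraries. The pooled ratio was 0.537 with an interval from 0.183 to 1.31 (exact permutation p = 0.486).

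Of the eicosanoid enzymes, Hpgds was the best measured. It makes prostaglandin D2 from prostaglandin H2 and lies on chromosome 6 at 65117293 to 65144908 (minus strand). Its counts were 22, 13, 12 and 4 in the control libraries and 2, 7, 4 and 2 in the RANKL libraries. In CPM these were 2.80, 3.49, 3.04 and 6.88 in control and 3.23, 4.82, 2.09 and 1.10 in RANKL libraries. The highest library was control replicate 4, on 4 counts, and the lowest were RANKL replicates 4 and 3. The pooled ratio was 0.815 with an interval from 0.426 to 1.47 (exact permutation p = 0.4).

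Ptgs1, the constitutive cyclooxygenase that makes prostaglandin H2, lies on chromosome 2 at 36230426 to 36252272 (plus strand). It had 9, 2, 1 and 0 counts in the control libraries and 0, 0, 0 and 2 counts in the RANKL libraries. A single RANKL library held the gene, and the pooled ratio of 0.462 had an interval from 0.0502 to 2.08 (exact permutation p = 0.543). Alox5, the lipoxygenase that starts leukotriene synthesis, lies on chromosome 6 at 116410077 to 116461178 (minus strand). It had 0, 7, 3 and 0 counts in the control libraries and 1, 0, 2 and 0 counts in the RANKL libraries, so it was detected in 2 libraries of each group. Its pooled ratio was 0.832 with an interval from 0.147 to 3.23 (exact permutation p = 1.0).

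Il25, the cytokine of the set, lies on chromosome 14 at 54932695 to 54935837 (plus strand) and had 0 counts in all 8 libraries. With none seen, a level of up to 3 counts is still possible, or 0.186 CPM for the control libraries as a whole and 0.516 CPM for the RANKL libraries. No difference could be measured for this gene.

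Ordered by pooled level in the control group, the genes ran from Dclk1 at 8.32 CPM through Hpgds at 3.17, Trpm5 at 2.48, Rgs13 at 1.92, Avil at 1.30, Pou2f3 at 0.807, Ptgs1 at 0.745 and Alox5 at 0.621 CPM to Gfi1b and Il25 at 0. In the RANKL group Dclk1 was again first at 9.47 CPM, followed by Hpgds at 2.58 and Trpm5 at 1.72 CPM, with Pou2f3, Gfi1b and Rgs13 each at 1.03 CPM, Avil at 0.688, Alox5 at 0.516 and Ptgs1 at 0.344 CPM. In the control group the ranges over libraries of all neighbours in this order overlapped. In the RANKL group Dclk1 stood clear of Hpgds, the lowest Dclk1 library being at 8.87 CPM and the highest Hpgds library at 4.82 CPM, and the others overlapped. Of the 8 genes with counts in both groups, the pooled RANKL level was above the control level for 2, Dclk1 and Pou2f3, and below it for 6, and each of the 8 exact intervals of the ratio contained 1. None of the 10 genes shared exonic sequence on the same strand with another annotated gene.

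The genes closest to the 10 in their pattern over the 8 libraries were found by the root mean square difference between centred log2 CPM profiles, with the counts of the 10 genes summed into 1 profile and 9929 candidates at a mean of at least 5 CPM. The closest were Ctbp2, Tubgcp3, Pbk, Nampt and Rsl1d1, with differences of 0.06, 0.08, 0.11, 0.11 and 0.11 on the log2 scale, where the median candidate differed by 0.38. None of the 5 differed between the groups past the threshold, with log2 fold changes from -0.10 to 0.07. This follows from their choice by likeness to a sum that differed little between the groups. All 5 were more abundant than the summed tuft genes except Ctbp2 at a mean of 16.6 CPM. The summed profile itself moved by a root mean square of 0.26 over the libraries, at between 10 and 159 counts per library.

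The wider programme was read from 5 lists of 82 symbols of tuft cell genes besides the 10, of which 79 were in the table, 73 had any count and 35 passed the filter. Of the 3 symbols not matched, Pou2af2 and Irag2 are newer names of genes that were found as 1810046K07Rik and Lrmp. Among the 35, edgeR called 15, which is 42.9% beside 25.9% of all genes tested, 11 higher with RANKL and 4 lower, beside 13.6% and 12.4% of all genes tested. Genes low in control, such as Spib and Rac2, passed the filter only through their RANKL libraries and could only be called higher. The same filter chose all genes tested, but the share of such genes in each set was not measured. The number higher is therefore no independent support for a rise of the lists. The median log2 fold change of the 35 was 0.09, beside 0.00 over all genes tested. Many of these genes serve other epithelial cells as well. As with the 10, the lists were drawn up with earlier results of these data known.

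Of the transcription factors and coactivators, 6 were in the table, 2 were tested and both rose, beside 13.6% of all genes tested. Spib, 1 of the 2, passed the filter only through its RANKL libraries, and 4 factors were not tested. These 2 calls therefore say little about the list. Spib, an ETS factor that tuft cell lists share with M cells, the antigen-sampling cells of the epithelium over lymphoid follicles, had 68 counts in control and 9481 counts in RANKL libraries. Its level was between 2.28 and 5.37 CPM in control and between 1489 and 1760 CPM in RANKL libraries, with no overlap, a log2 fold change of 8.56 ± 0.16 (SE, adjusted p = 4.81e-27). All 6 tested M cell markers, Spib among them, were higher with RANKL, beside 13.6% of all genes tested. Markers low in control could enter the test only through their RANKL libraries, so the share called higher partly follows from the filter. The sums of the M cell markers lay between 22.9 and 31.0 CPM in control and between 1802 and 2054 CPM in RANKL libraries. Gp2 of mature M cells was at 0 in all 8. Sox4, a SOX factor of progenitors and of early secretory cells, rose from between 397 and 433 CPM to between 750 and 873 CPM, a log2 fold change of 1.00 ± 0.09 (adjusted p = 7.43e-10).

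The other factors were too low to be tested. 1810046K07Rik, the older symbol of a coactivator that binds Pou2f3, had 33 counts in control and 6 in RANKL libraries, and in the fit without a filter its log2 fold change was -1.06 (adjusted p = 0.42). Gfi1 had 37 and 12 counts and Hmx3 had 23 and 7 counts in the control and the RANKL libraries, with log2 fold changes of -0.19 and -0.28 in that fit (adjusted p of 0.87 and 0.841).

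In the taste cascade, 12 genes were in the table and 2 passed the filter, both of them calcium release channels of wide expression. Itpr3, the inositol trisphosphate receptor downstream of taste G proteins, fell from between 84.2 and 95.8 CPM to between 59.7 and 76.3 CPM, a log2 fold change of -0.39 ± 0.12 (adjusted p = 0.0159), a call lost without control replicate 2 (adjusted p = 0.0517) or RANKL replicate 2 (adjusted p = 0.0567). Itpr2 differed by -0.08 ± 0.17 (adjusted p = 0.772). The G protein subunits Gnat3 and Gnb3, the taste receptor Tas1r2 and the succinate receptor Sucnr1, through which tuft cells sense protists, had 0 counts in all 8 libraries. The receptors Ffar3, with 32 counts in control and 13 in RANKL libraries, and Tas1r3, with 17 and 5, were not tested, and without a filter their log2 fold changes were 0.23 and -0.34 (adjusted p of 0.835 and 0.835).

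Of 13 further genes of eicosanoid synthesis, 7 were tested and 1 rose, a share near the 13.6% of all genes tested. Mgst3, a membrane glutathione transferase with leukotriene C4 synthase activity, had between 44.1 and 60.2 CPM in control and between 70.2 and 87.3 CPM in RANKL libraries, a log2 fold change of 0.62 ± 0.13 (adjusted p = 7.08e-04). The other 6 had negative log2 fold changes and missed the threshold. Among them were Lta4h, which makes leukotriene B4, at -0.25 ± 0.10 (adjusted p = 0.0726), Ptges3, a prostaglandin E synthase and co-chaperone, at -0.27 ± 0.11 (adjusted p = 0.0564), and Mgst2 at -0.11 ± 0.11 (adjusted p = 0.493). Hpgd had the largest fall, at -0.71 ± 0.28 (adjusted p = 0.0594), and Ptges2 was at -0.35 ± 0.16 (adjusted p = 0.101). In this list 4 genes did not overlap between the groups, Mgst3, Lta4h, Ptges3 and Ptges2, beside 24.6% of the genes past the filter. Lta4h and Ptges3 passed when 1 control library was left out, replicate 3 for Lta4h (adjusted p = 0.0368) and replicate 1 for Ptges3 (adjusted p = 0.0324). The inducible cyclooxygenase Ptgs2 had 0 counts in all 8 libraries.

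In the type 2 circuit, 10 genes were in the table, of which 4 were tested and 3 rose, beside 13.6% of all genes tested. Il4ra, the receptor chain shared by interleukin 4 and interleukin 13, had 39.1, 44.3, 45.4 and 58.5 CPM in control replicates 1 to 4. In RANKL replicates 1 to 4 it had 129, 189, 183 and 240 CPM. The groups were far apart, with a log2 fold change of 2.10 ± 0.14 (adjusted p = 6.73e-13). Its partner Il13ra1 had between 7.10 and 16.6 CPM in control and between 16.1 and 20.3 CPM in RANKL libraries, which overlapped. The log2 fold change of 0.67 ± 0.24 (adjusted p = 0.0369) was past the threshold in edgeR but not in DESeq2 (adjusted p = 0.167), nor without control replicate 3 (log2 fold change 0.45, adjusted p = 0.13), RANKL replicate 2 (adjusted p = 0.0762), RANKL replicate 3 (adjusted p = 0.0966) or RANKL replicate 4 (adjusted p = 0.106). Cd24a, a surface glycoprotein of tuft cells that crypt progenitors and Paneth cells also carry, rose from between 46.1 and 63.6 CPM to between 138 and 159 CPM, a log2 fold change of 1.49 ± 0.12 (adjusted p = 5.74e-11). Stat6, the factor that the receptor activates, differed by -0.13 ± 0.13 (adjusted p = 0.535). Il17rb, which with another chain binds Il25, had 51 counts in control and 10 in RANKL libraries, and Cd300lf, a receptor for lipids and for norovirus, had 31 and 7. Neither was tested, their log2 fold changes without a filter being -0.74 and -0.63 (adjusted p of 0.501 and 0.66). The cytokine Tslp had 0 counts in all libraries.

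Of the 38 other tuft cell genes, 20 were tested, of which 5 rose and 3 fell, beside 13.6% and 12.4% of all genes tested. Rac2, a small GTPase of tuft and blood cells, had 3, 1, 0 and 0 counts in the control libraries and 59 counts in all in the RANKL libraries, with 8.07, 12.4, 8.87 and 10.4 CPM in replicates 1 to 4, a log2 fold change of 5.13 ± 0.48 (adjusted p = 9.36e-10). Rac2 passed the filter through its RANKL libraries alone. Its control level rests on 4 counts, so that the pooled ratio of 40.9 had an interval from 15.2 to 155. Without control replicate 1 the log2 fold change was 5.80 (adjusted p = 7.49e-09). The haematopoietic sums given for Gfi1b were also higher on average with RANKL, 9.71 ± 4.60 against 4.78 ± 2.03 CPM, with Ptprc at 1 count, and their part in the values of Rac2 and Gfi1b was not tested. The membrane proteins Tmem176b and Tmem176a, whose genes run in opposite directions on chromosome 6 and share exonic sequence on opposite strands, rose together, Tmem176b by a log2 fold change of 1.97 ± 0.12 (adjusted p = 3.30e-14) and Tmem176a by 1.25 ± 0.13 (adjusted p = 1.48e-08). Tmem176b had between 44.7 and 62.0 CPM in control and between 184 and 250 CPM in RANKL libraries. Tuba1a, an alpha tubulin, rose by 1.24 ± 0.19 (adjusted p = 9.25e-06). The fifth gene to rise, Skap2, an adaptor of immune and epithelial signalling named after its values were seen, had a log2 fold change of 0.57 ± 0.12 (adjusted p = 7.19e-04).

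Krt18, a keratin that tuft cells share with the rest of the simple epithelium, fell from between 583 and 706 CPM to between 369 and 418 CPM, a log2 fold change of -0.70 ± 0.09 (adjusted p = 9.40e-07). Its keratin partner Krt8 differed by 0.14 ± 0.12 (adjusted p = 0.398). Sh2d7, an adaptor close to tuft cell restricted, had 138 counts in control and 27 in RANKL libraries. It had 8.91, 7.78, 8.36 and 10.3 CPM in the control libraries and 3.23, 6.88, 3.13 and 4.94 CPM in the RANKL libraries. The groups did not overlap, with a log2 fold change of -0.87 ± 0.32 (adjusted p = 0.041, exact permutation p = 0.0286). This call was lost in 12 of 16 alternatives, DESeq2 (adjusted p = 0.215), limma-voom (adjusted p = 0.0503) and the removal of any of 6 of the 8 libraries among them, at adjusted p of up to 0.193 without RANKL replicate 3, and by log2 fold change it lay between -1.13 and -0.67 throughout. Atp2a3, the calcium pump of the endoplasmic reticulum, was at 174 CPM in control replicate 3 and between 89.6 and 101 CPM in the other controls, against 58.8 to 95.7 CPM in RANKL libraries. Its log2 fold change was -0.49 ± 0.17 (adjusted p = 0.0385), and without control replicate 3 it was -0.18 (adjusted p = 0.356), without RANKL replicate 4 -0.33 (adjusted p = 0.219) and without RANKL replicate 1 -0.51 (adjusted p = 0.0532). DESeq2 (adjusted p = 0.132) and limma-voom (adjusted p = 0.0834) did not call it either. Lima1, Ptpn18 and Pim3, the most abundant of the 12 that did not pass, had log2 fold changes of 0.22, -0.03 and 0.09 (adjusted p of 0.104, 0.86 and 0.659).

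**Figure D3:**
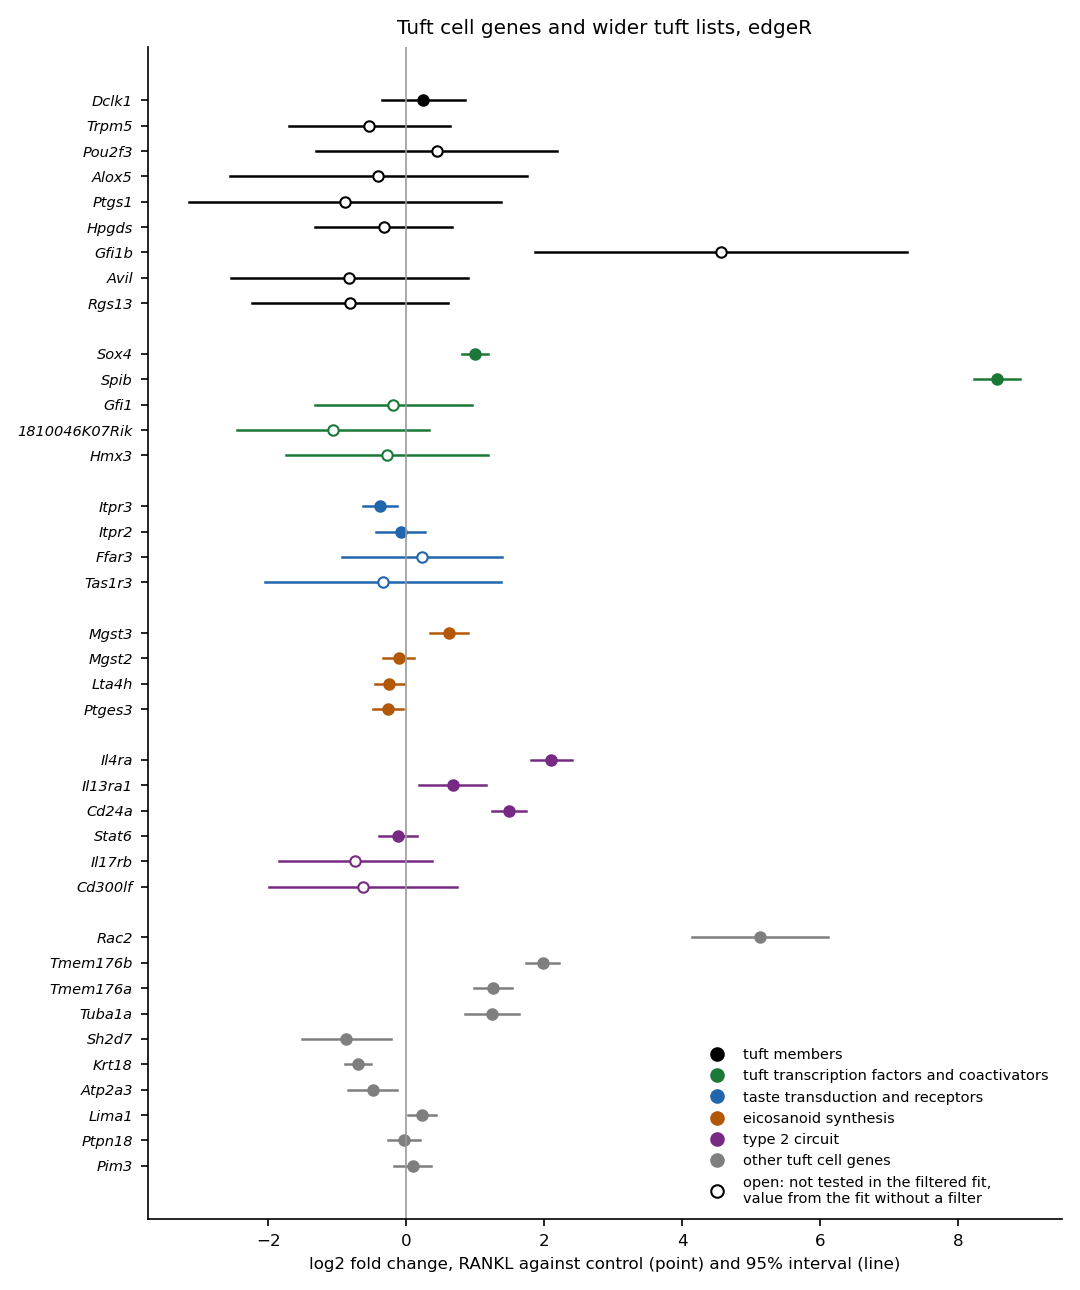
Log2 fold change of RANKL against control (points) with 95% intervals (lines) from edgeR, for 9 of the 10 tuft genes (black; Il25 has no counts) and the named genes of the 5 wider lists (colours). Filled points are from the filtered fit and open points from the fit without a filter, and the open point of Gfi1b, at 0 in all control libraries, depends on the fit's prior count. The interval of each of the other 8 tuft genes crosses 0, while Spib, at 8.56, and Rac2, at 5.13, lie far to the right.

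Without a filter, 2 of the 38 genes of the wider lists that had counts but had not been tested also passed, beside 10.8% of all genes with a value in that fit and 3.22% of the filtered-out genes with 6 to 66 counts, and both were named after their values were seen. Fyb, an adaptor of T cell signalling, had 58 counts in control and 63 in RANKL libraries (log2 fold change 1.55, adjusted p = 1.11e-04, in DESeq2 0.0103), and its groups overlapped. Tspan6, a tetraspanin, had 6 and 13 counts (log2 fold change 2.47, adjusted p = 0.0337) and its groups did not overlap, and DESeq2 did not call it (adjusted p = 0.102).

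Of the other epithelial classes, M cell genes rose, as given with Spib. The summed markers of enteroendocrine, goblet and Paneth cells were close between the groups. Enteroendocrine genes were at 876 ± 52.6 CPM without and 910 ± 49.4 CPM with RANKL. Goblet cell genes were at 3134 ± 309 and 3241 ± 117 CPM and Paneth cell genes at 5612 ± 478 and 5501 ± 442 CPM (SD, n = 4 each). Enterocyte genes were at 4651 ± 173 and 4597 ± 223 CPM, and stem cell genes at 1407 ± 187 and 1177 ± 96.6 CPM. Single genes of these lists passed the edgeR test all the same, beside 13.6% of all genes called higher and 12.4% called lower, with 3 of 9 enteroendocrine genes higher, 1 of 7 Paneth cell genes higher, 1 of 7 enterocyte genes higher and 1 lower, and 1 of 5 stem cell genes higher and 3 lower. Of the 7 goblet cell genes edgeR called 0, with 3 at an unadjusted p under 0.05, and DESeq2 called 0. Mesenchymal and endothelial genes were at 3.57 ± 2.28 and 2.72 ± 1.70 CPM and neural genes at 15.4 ± 3.54 and 9.0 ± 1.31 CPM. The part of these cells in the levels of the tuft genes was not tested.

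Promoters of the tuft genes are shown because the 3 motifs searched in them belong to the POU family of Pou2f3, the ETS family of Spib and the NF-κB family, which RANK activates. The motifs were chosen after values were seen. They were read on both strands in windows from 250 bases before to 50 bases after the start in RefSeq (GRCm38.p6), which held 8 of the 10 tuft genes, all but Pou2f3 and Il25. A gene counted as matched if any of its windows held the letters, whereas the share of all windows counts single windows. Genes with several starts had more chances of a match, so these shares cannot be compared directly. The octamer ATGCAAAT of POU factors was in the window of 1 of the 8, Hpgds, in 7 of 69 genes of the wider lists and in 1.74% of the 32851 windows. The ETS letters GAGGAAGT were in the windows of 2 of the 8, Hpgds and Ptgs1, in 6 of the 69 and in 3.2% of all windows. The κB letters, GGG and TTTCC with any NN between them, were in the window of 1 of the 8, Rgs13, in 4 of the 69 and in 1.63% of all windows. The 4 were Il4ra, Krt23, Tmem176a and Tmem176b, with 1 match shared by the neighbouring starts of the last pair. In the genes with a match, no motif overlapped another. The sequences, 5′ to 3′ on the strand of the gene, have the match in capitals, the octamer for Hpgds (chr6:65144885-65144914, minus strand), the ETS letters for Ptgs1 (chr2:36230176-36230425, plus strand) and the κB letters for Rgs13 (chr1:144177373-144177622, minus strand) and Tmem176b (chr6:48841387-48841416, minus strand).
Hpgds: tttactctttATGCAAATacgttggactaa
Ptgs1: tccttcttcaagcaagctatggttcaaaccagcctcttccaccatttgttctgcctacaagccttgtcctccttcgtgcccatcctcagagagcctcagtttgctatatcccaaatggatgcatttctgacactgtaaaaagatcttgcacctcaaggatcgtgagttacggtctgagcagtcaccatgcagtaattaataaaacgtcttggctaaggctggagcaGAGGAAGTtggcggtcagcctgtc
Rgs13: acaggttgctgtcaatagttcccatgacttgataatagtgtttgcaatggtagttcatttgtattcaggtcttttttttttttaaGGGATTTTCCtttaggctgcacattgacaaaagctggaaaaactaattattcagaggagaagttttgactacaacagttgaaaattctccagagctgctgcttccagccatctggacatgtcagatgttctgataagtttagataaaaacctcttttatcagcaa
Tmem176b: ggcccctttaGGGGTTTTCCagcaggcagc
The matches printed for Hpgds and Tmem176b lie in annotated exons, and 30 bases around each are shown. A match is a description of these letters and not a bound site. Rgs13, with a κB match, had a pooled ratio of 0.537 whose interval contained 1. Krt23, with a match, had a log2 fold change of -0.33 (edgeR adjusted p = 0.384), while Il4ra, Tmem176a and Tmem176b, with a match, rose. A link between a match and a change was not tested.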

How the data were processed

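RNA was sequenced from 4 control and 4 RANKL-treated organoid libraries with a QuantSeq 3′ forward kit in single reads of 50 bases, and groups and replicate numbers come from the labels. The deposited values are raw counts per gene. To make them, the authors trimmed reads, discarded ribosomal, mitochondrial, phiX and adapter sequence, mapped what was left to GRCm38 and used featureCounts with strand on Ensembl release 94. Molecular identifiers are not mentioned, so PCR copies count as reads, and intervals and floors (3 counts) cover counting error only.

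Symbols were matched by Ensembl identifier. Total counts ran from 583663 to 7807298 per library. RANKL and control libraries were compared in edgeR 4.0.16 (R 4.3.3; TMM factors, filterByExpr, quasi-likelihood test), adjusting over 9971 genes by Benjamini-Hochberg with a threshold of 0.05, and standard errors are the log2 fold change over the square root of F. The exact two-sided permutation test used CPM in all 70 assignments of the libraries. Ratios of pooled counts have exact conditional binomial 95% intervals. limma 3.58.1 and DESeq2 1.42.0 were used for alternatives, and tables were read with Python 3.11.15, pandas 2.3.3 and SciPy 1.17.1. The steps were tested on simulated data. The paper's methods name DESeq2 for its own test.

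Within a group, Spearman correlations between libraries were between 0.958 and 0.986, and a chi-square of counts over its degrees of freedom was at least 1.25, above counting noise, so no libraries were merged.

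The 10 genes and the lists were chosen with earlier results of these data known. Named genes are the 10, from each wider tuft list the genes past the threshold (where more than 5 passed, the 5 with the largest change and those against the list's median) and up to 3 more with the most counts, the 5 genes closest in pattern, Tnfrsf11a and the marker genes that bear on a result. Skap2, Fyb, Tspan6, Itga2b, Krt8, Hpgd and Ptges2 were named after their values were seen. Coordinates are from GENCODE release M21 on GRCm38 and promoters from RefSeq. Of 82 listed symbols, Pou2af2, Pou2af3 and Irag2 were not matched.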

Additional observations from a re-analysis of the deposited data

Results flagged for a closer look

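In 75 groups of 4 libraries, for the named tuft genes, 9 held a library whose distance from its nearest neighbour took up more of the group's range than Dixon's 95% critical value for 4 samples allows. For normal values of equal precision, chance gives about 1 in 20 groups, or 3.75 of 75. CPM from a few counts in libraries of unlike depth are not such values, so 9 cannot be set against 3.75. Of the 10 tuft genes, Ptgs1 was at 1.10 CPM in RANKL replicate 4, on 2 counts, with the other 3 libraries at 0. Hpgds was at 6.88 CPM in control replicate 4, on 4 counts, with the next at 3.49 CPM. Avil was at 4.84 CPM in RANKL replicate 1, on 3 counts, with the next at 0.522 CPM. Among the wider genes, control replicate 4, the shallowest library, also stood apart for Gfi1 at 5.16 CPM, on 3 counts, and for 1810046K07Rik at 6.88 CPM, on 4 counts. Tas1r3 was at 3.04 CPM in control replicate 3, on 12 counts. Atp2a3 was at 174 CPM in control replicate 3, on 686 counts, with the next at 101 CPM, and at 58.8 CPM in RANKL replicate 4, with the next at 90.4 CPM. Sox4 was at 750 CPM in RANKL replicate 4, with the next at 857 CPM.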

How the results depend on the processing

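The 10 tuft genes gave 0 calls in the main test and in 16 of 17 alternatives, and 1 call without a filter on low counts. Among them were DESeq2 size factors or library totals in edgeR, DESeq2, limma-voom, at least 10 counts over the 8 libraries, the replicate block, each library left out (0 to 0 calls), both shallowest libraries left out together and an adjusted p of 0.01. As 1 to 9 of the genes were tested, these counts say little about stability. The log2 fold change of Dclk1 was between 0.03 and 0.43 over 16 alternatives. The wider tuft genes gave 15 calls, between 13 and 16 with a library left out, 15 without both shallowest libraries and 11 at an adjusted p of 0.01. Over all genes 2587 passed, between 1853 and 2601 with a library left out and 1636 at an adjusted p of 0.01. Whether equal replicate numbers pair the libraries could not be decided. Correlations between libraries of the same number were -0.0047, -0.0312, 0.0984 and 0.0409, and between unlike numbers from -0.1315 to 0.0827. Counting noise in shallow libraries draws such values towards 0. With the replicate number as a block 0 tuft genes, 14 wider tuft genes and 2610 genes in all passed. Of 38 named genes, 30 kept their side of the threshold in every alternative that gave a value, 1 (Gfi1b) had an adjusted p in the fit without a filter alone, and 7 did not keep it (Itpr3, Lta4h, Ptges3, Il13ra1, Sh2d7, Atp2a3 and Lima1, the last gained without control replicate 2), in 28 of 393 comparisons, with 0 called values changing sign. The causes were not tested. At 1.72 CPM a count in the shallowest library, control replicate 4, levels under that cannot be read in that library. In the other libraries a count stood for between 0.127 CPM (control replicate 1) and 1.61 CPM (RANKL replicate 1).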
